A study of Homo sapiens with 4 samples.

Results

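The kinases of the mitogen-activated protein (MAP) kinase cascades were examined after depletion of UPF1, the RNA helicase that nonsense-mediated RNA decay (NMD) depends on. They were chosen by gene symbol alone, as every gene named MAPK, MAP2K, MAP3K or MAP4K followed by a number, which gave 40 of the 15942 genes in the table. By tier they were 13 MAPK, 7 MAP2K, 15 MAP3K and 5 MAP4K genes, and all 40 passed the filter on low counts. The cells were H9, a line of human embryonic stem cells (hESCs) grown without feeder cells on Matrigel in E8 medium. One group of 2 libraries had received an siRNA against luciferase (siLuc), which has no target in these cells, and the other group of 2 an siRNA against UPF1 (siUPF1). The labels of all 4 libraries share a treatment text that names UPF3A siRNA and blocking transcription with actinomycin D over time as well, with no time given per library. Whether replicates are separate cultures is not stated, so p-values cover only the variation among these 4 libraries, technical or not. The tests pool part of that variation over genes, so a gene's SE or p-value does not measure its own spread alone.

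MAP kinase cascades relay signals through kinases that phosphorylate one another in order. MAP4Ks and other inputs act on MAP3Ks, MAP3Ks on MAP2Ks, MAP2Ks on MAPKs, and MAPKs on transcription factors and further kinases. The main branches end in the ERKs, which answer growth factors, and in the JNKs and p38 kinases, which answer stress and cytokines. In hESCs, FGF2 in the medium signals through the ERK branch. NMD removes transcripts on which translation ends early, including many with upstream reading frames, and MAP3K14 is a known NMD target.

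The libraries held between 8887239 and 11200973 counts. UPF1 itself went from 219 and 205 CPM (counts per 1000000 counts of the library, after TMM scaling) in the controls to 60.8 and 78.2 CPM in the siUPF1 libraries. All 8 hESC markers examined were detected, at means of 92.2 to 377 CPM, and their summed level was 1856 and 1730 CPM in the controls and 1595 and 1488 CPM after siUPF1. Of these 8, 5 fell and 3 did not pass, at log2 fold changes of -0.30 to -0.13. DESeq2 called 3 of them lower, edgeR 2 with the trend of each library on read density removed, where the log2 fold changes were -0.16 to -0.01. Without siUPF1 replicate 2 edgeR called 2 lower, and without control a 0, where their log2 fold changes were -0.25 to -0.09. Among fibroblast markers COL1A1 and COL1A2 were also abundant and did not pass, and PDGFRA fell (-0.61, SE 0.14). DCN and LUM were looked for but were not among the genes in the table. The summed level of the fibroblast markers found was 337 to 346 CPM in the controls and 341 to 354 CPM after siUPF1. Markers of other lineages were low, with summed levels of 10.1 to 10.8 CPM for 2 neural genes and 12.1 to 15.5 CPM for 3 trophoblast genes, of which CGA rose, from 3 and 6 counts to 11 and 16. The endoderm marker FOXA2 fell from 4.98 and 4.09 CPM to 0.6 and 0.535 CPM, and the mesoderm marker MIXL1 from 4.86 and 5.89 CPM to 2.9 and 3.21 CPM. SOX17, GATA6, TBXT, EOMES and ELF5 were looked for as well but were not among the genes in the table. FOXA2, MIXL1 and CGA were also called in limma-voom. DESeq2 called FOXA2 but neither MIXL1 nor CGA, and with the density trend removed CGA was not called. The part of any of these shifts in the results below was not tested, and in bulk RNA fewer cells of a type and less RNA per cell cannot be told apart.

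Most of the cascade kept its transcript level. Of the 40 kinases, 7 rose, 1 fell and 32 did not pass (edgeR quasi-likelihood test, adjusted p under 0.05), and 29 differed by less than 1.2-fold, as 71.3% of all genes did. The risers were MAPK7, MAPK10, MAPK12, MAP3K5, MAP3K9, MAP3K10 and MAP3K14, and the faller was MAP2K6. Of all 15557 genes tested, 16.8% rose and 9.14% fell, so the 17.5% of the kinases that rose lies near the background, and 8 of 40 called in either direction is a smaller share than the 25.9% of all genes. The median log2 fold change was -0.01 over the kinases and -0.01 over all genes. In 17 kinases the siUPF1 libraries were both higher than either control and in 9 both lower, 26 of 40 in all. Of all genes 32.3% were higher and 31.1% lower in this sense, 63.4% in all. With the trend of each library on read density removed, 6 kinases rose and 6 fell, 30.0% in all. Of all genes 13.9% and 13.3% did, 27.2% in all, so the excess of risers over fallers depends on that choice.

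**Figure D1:**
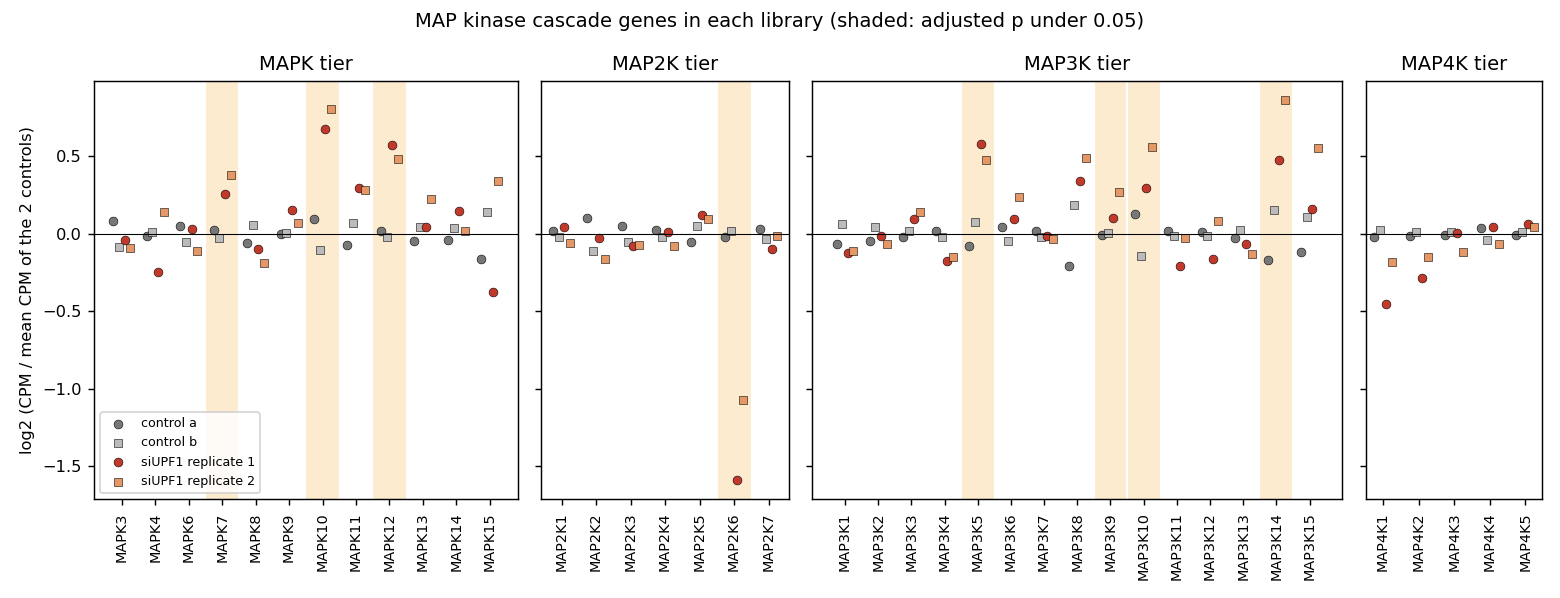
Each point is one library's level of one kinase, as the log2 ratio of its CPM to the mean CPM of the 2 controls, in 4 panels by tier (circles and squares are the 2 libraries of a group, grey for siLuc and red or orange for siUPF1). Shading marks the 8 kinases past the test. The 39 kinases plotted lie mostly near 0, and MAP2K6 stands furthest from it.

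MAP3K14, which encodes the NF-kB-inducing kinase NIK of the noncanonical NF-kB pathway, had 24.7 and 30.8 CPM in controls a and b (218 and 309 counts) and 38.6 and 50.5 CPM in siUPF1 replicates 1 and 2 (386 and 567 counts). The groups did not overlap, although the libraries within each group were spread widely, by 0.32 on the log2 scale between the controls and 0.39 between the siUPF1 libraries. Its mean was 27.7 ± 4.36 CPM under siLuc and 44.6 ± 8.41 CPM under siUPF1 (SD, n = 2 libraries each), a 1.6-fold rise (log2 fold change 0.68, SE 0.10, edgeR adjusted p = 7.16e-10). In DESeq2 the SE of MAP3K14 was 0.17 and its adjusted p 0.00129. With the density trend removed its edgeR adjusted p was 0.00765, the highest of its alternatives. It passed under each of 11 alternative analyses, with log2 fold changes from 0.47 without siUPF1 replicate 2 to 0.86 without siUPF1 replicate 1. The antisense gene MAP3K14-AS1 overlaps MAP3K14 by an exon. No source used here says whether counting was by strand, and MAP3K14-AS1 had 42, 42, 31 and 54 counts in the same order of libraries, with a log2 fold change of -0.16 that did not pass.

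The upstream AUGs of the risers are shown because a reading frame ahead of the main one is a known feature of NMD targets. They come from the GENCODE release 29 transcript that matches a RefSeq transcript of the table and is nearest to it in length. Each line gives 21 bases or fewer, 5′ to 3′ in DNA letters, with the upstream start codon in capitals, for every upstream AUG of MAP3K14, MAP3K10, MAP3K5 and MAPK7.
MAP3K14: cttggccggATGagcacaagc
MAP3K10: gccccagccATGgccctcagg
MAP3K5: cggcgcgcgATGgcagctgct
MAPK7, farther from the start codon: ctaccggggATGacacattcc
MAPK7, nearer to the start codon: accaagcaaATGgcggacaca
The single upstream AUG of MAP3K14 lies 19 nt ahead of its start codon and opens a frame that runs past that start codon in another frame. In MAP3K10 the upstream frame starts 125 nt ahead and closes after 30 codons, and in MAP3K5 it starts 107 nt ahead and closes after 4 codons. Both have a purine 3 bases before the AUG and a G directly after it, the context that favours initiation, while MAP3K14 and MAPK7 do not have both. MAPK7 has one frame that runs past the start codon, from 106 nt ahead, and one that closes after 15 codons, from 72 nt ahead. MAPK10 had 5 upstream AUGs, of which those 218 and 75 nt ahead had both the purine and the G. Those 65 and 28 nt ahead opened frames that run past the start codon. MAPK12 and MAP3K9 had 0 upstream AUGs in the matched transcripts, that of MAP3K9 having no annotated 5′ UTR.

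Such features were common among the kinases whether or not they rose. In 37 of the 40 kinases the matched transcript was within 1.5-fold of the table's length. MAP2K6, the only faller, was not among them, as its matched transcript was 7.19 times that length. The counts below therefore hold no faller. That transcript of MAP2K6 had 2 upstream AUGs and a 3′ UTR above 2282 nt, and GENCODE lists 1 NMD-type transcript for the gene. Of the 37, 20 (54.1%) had an upstream AUG, against 51.4% of 12377 genes tested and matched the same way. Of the 20 with an upstream AUG 5 rose, and of the 17 without one 2 rose, while over all matched genes the shares that rose were 18.1% with and 15.5% without. MAPK6 and MAPK4, atypical MAPKs that lack the usual activation motif, had the most upstream AUGs of the kinases, 15 and 14, and log2 fold changes of -0.04 each, neither passing. A 3′ UTR of at least 2282 nt, the upper quartile, was found in 12 of the 37 (32.4%, against 23.3% of all genes), of which only MAP3K9 rose, against 6 of the 25 others. Over all matched genes 22.0% with such a 3′ UTR rose and 15.3% without. GENCODE lists an NMD-type transcript for 20 of the 37 (54.1%, against 41.3%), of which 3 rose, against 4 of the 17 others, while over all matched genes 17.7% with and 16.3% without one rose. MAP3K14 had 0 NMD-type transcripts among its 7, and MAPK10 had 35 among its 192. Counts per gene do not show which isoform changed.

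Among the MAP3Ks, which take in the signal, 4 of 15 rose and 11 did not pass, with a median log2 fold change of 0.12. Of all genes 16.8% rose, and their median was -0.01. With the density trend removed 3 MAP3Ks rose and 2 fell, with a median of 0.07 against -0.03 over all genes. MAP3K10 (MLK2), a mixed-lineage kinase upstream of JNK, had 41.4 and 34.2 CPM in the controls and 46.3 and 55.9 CPM after siUPF1, so that both siUPF1 libraries were above both controls. It rose by 0.44 on the log2 scale (SE 0.09, edgeR adjusted p = 1.95e-05). Without control b its adjusted p was 0.102 (log2 fold change 0.30), the highest over 11 alternatives that began at 2.06e-08 (edgeR). MAP3K9 (MLK1), of the same family, had 142 and 144 CPM in the controls and 153 and 172 CPM after siUPF1, and rose by 0.19 (SE 0.07, edgeR adjusted p = 0.0315). The difference was small and its call was lost in 5 of 11 alternatives, whose adjusted p ran from 0.00194 to 0.349. They were DESeq2, removal of the density trend, and leaving out control a, control b or siUPF1 replicate 2, where the log2 fold change was 0.10. MAP3K11 (MLK3), also a mixed-lineage kinase, had 98.9 and 96.8 CPM against 84.6 and 95.9 CPM and did not pass (-0.11, SE 0.07).

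The apoptosis signal-regulating kinases (ASKs), which respond to oxidative stress, are MAP3K5, MAP3K6 and MAP3K15. MAP3K5 (ASK1) had 15.7 and 17.6 CPM in the controls and 24.9 and 23.2 CPM after siUPF1, with tight libraries in both groups. It rose 1.44-fold (log2 fold change 0.53, SE 0.13, edgeR adjusted p = 0.000786). Its adjusted p was 0.0781 without control a and 0.0503 in DESeq2, within a range over alternatives that began at 0.00037. MAP3K6 (0.17, SE 0.12) and MAP3K15 (0.37, SE 0.21) also lay above both controls in both siUPF1 libraries, but neither passed. MAP3K15 had only 46 to 93 counts per library. MAP3K8 (TPL2), which activates the ERK branch, went from 6.9 and 9.08 CPM to 10.1 and 11.2 CPM and did not pass on all libraries (0.41, SE 0.18, edgeR adjusted p = 0.0839). Without siUPF1 replicate 1 it passed, with an adjusted p of 0.0498, and without control a its adjusted p was 0.632, the highest of its alternatives (edgeR).

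The remaining MAP3Ks moved little. MAP3K7 (TAK1), which relays TGF-beta and cytokine signals to JNK, p38 and NF-kB, had 151 and 148 CPM in the controls and 148 and 146 CPM after siUPF1, a log2 fold change of -0.03 (SE 0.07). MAP3K4, a p38 and JNK activator, had 154 and 151 CPM against 135 and 138 CPM, so the groups were apart, but it did not pass (-0.16, SE 0.07, edgeR adjusted p = 0.0716). It passed when counts were scaled by library size alone or the density trend was removed, the latter giving the lowest adjusted p of its alternatives, 0.0104, of a range that ended at 0.413 (edgeR). MAP3K1 (-0.12, SE 0.07), MAP3K2 (-0.04, SE 0.07) and MAP3K3 (0.12, SE 0.07), of the MEKK family, and the dual leucine zipper kinases MAP3K12 (-0.03, SE 0.11) and MAP3K13 (-0.10, SE 0.09) did not pass. Of these, MAP3K1 had an adjusted p of 0.0192 with the density trend removed, the lowest over alternatives that ended at 0.765 (edgeR).

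In the MAP2K tier 1 of 7 kinases fell, by the largest amount of any of the 40, and the other 6 did not pass. Of all genes 9.14% fell. MAP2K6 (MKK6), which activates p38, had 41.7 and 42.8 CPM in the controls (369 and 429 counts) and 14.01 and 20.04 CPM after siUPF1 (140 and 225 counts). The controls were nearly equal, and both siUPF1 libraries lay far below them, replicate 1 lower than replicate 2. The mean went from 42.3 ± 0.743 to 17.0 ± 4.27 CPM (SD, n = 2 per group). MAP2K6 fell by 1.30 on the log2 scale (SE 0.12, edgeR adjusted p = 7.56e-27), to 0.406 of the control level. Its adjusted p was 2.57e-11 in DESeq2 (SE 0.18) and 0.000228 in edgeR with the density trend removed, the highest of its alternatives. MAP2K6 was the only one of the 40 that changed by at least 2-fold, as 3.53% of all genes did. Its log2 fold change was -1.08 without siUPF1 replicate 1 and -1.59 without siUPF1 replicate 2, and it passed under each of 11 alternatives.

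MAP2K3 (MKK3), the other dedicated activator of p38, did not move with MAP2K6. It had 68.1 and 63.3 CPM in the controls and 62.1 and 62.4 CPM after siUPF1, a log2 fold change of -0.07 (SE 0.08) that did not pass. On a scale of CPM per kb of transcript, which allows genes to be set side by side, MAP2K6 made up 43.2% and 45.6% of the sum of both in the controls, and 21.9% and 28.5% after siUPF1. That sum was 51.9 and 50.3 CPM per kb in the controls and 34.4 and 37.8 CPM per kb after siUPF1, 29.4% lower on average. The other MAP2Ks kept their levels within 1.1-fold. MAP2K1 (MEK1) had 89.3 and 87.0 CPM against 90.7 and 84.7 CPM, and MAP2K2 (MEK2) had 98.3 and 84.5 CPM against 89.6 and 81.6 CPM. The log2 fold changes of the JNK activators MAP2K4 (-0.03, SE 0.07) and MAP2K7 (-0.05, SE 0.07) and of the ERK5 activator MAP2K5 (0.10, SE 0.11) did not pass.

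**Figure D2:**
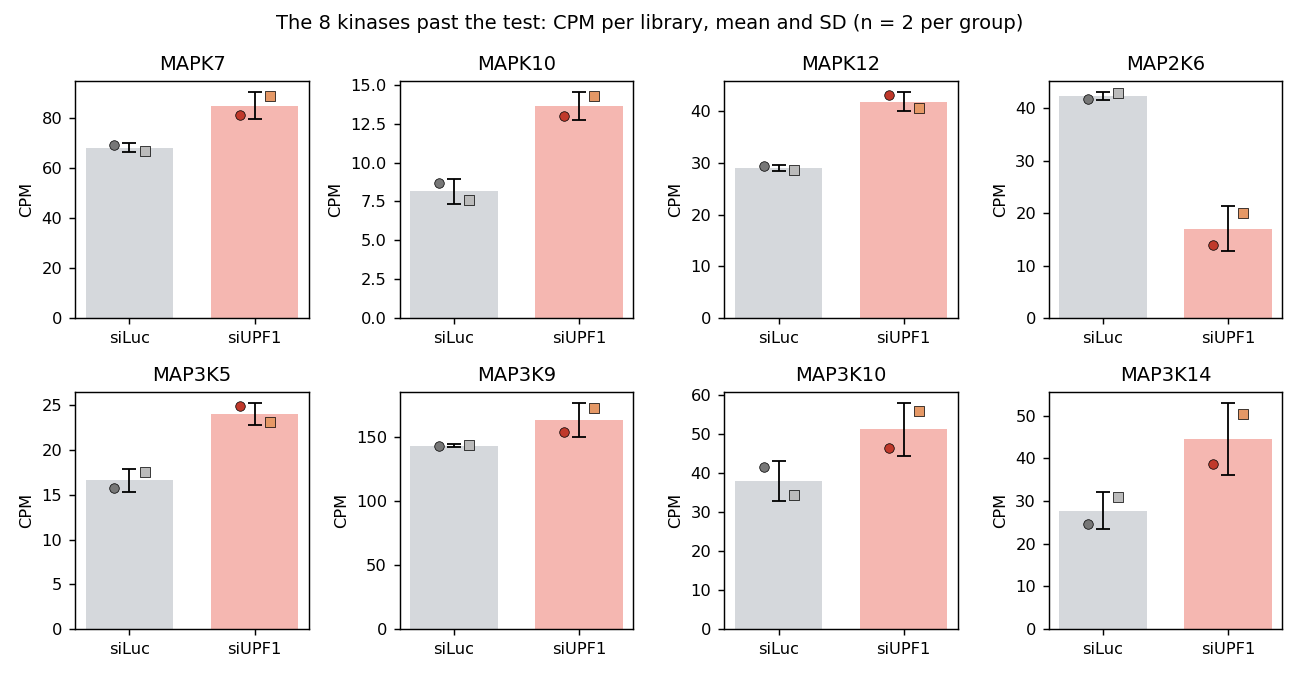
CPM of the 8 kinases past the test, with bars for the group mean, whiskers for the SD (n = 2 per group) and points for the libraries (circles are control a and siUPF1 replicate 1, squares control b and siUPF1 replicate 2). No group overlaps the other in any panel, which picking by the test on these libraries favours, and 63.4% of all genes show the same. MAP2K6, at 42.3 against 17.0 CPM, is the one that fell.

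Among the MAPKs themselves 3 of 13 rose, where 16.8% of all genes did, and 10 did not pass. Each riser was in a different branch. MAPK10 (JNK3), the JNK gene known for its expression in neurons, had 8.71 and 7.58 CPM in the controls (77 and 76 counts) and 13.01 and 14.3 CPM after siUPF1 (130 and 160 counts). It rose 1.68-fold (log2 fold change 0.75, SE 0.18, edgeR adjusted p = 0.000213), the largest rise of the 40, and passed under each of 11 alternatives, whose highest adjusted p was 0.049, without control b. PTPN13, on the opposite strand, shares exon sequence with it and is far more abundant, with 2449 to 3205 counts per library and a log2 fold change of 0.09 (SE 0.07) that did not pass. The neural markers PAX6 and SOX1 did not pass, at log2 fold changes of 0.15 (SE 0.22) and -0.22 (SE 0.24). Their means of 5.74 and 4.64 CPM are too low for small differences to be seen, and a link to MAPK10 was not tested. MAPK10 remained the scarcest JNK gene, with 4.34% and 3.66% of the summed CPM per kb of the 3 JNK genes in the controls and 6.04% and 6.96% after siUPF1. MAPK8 (JNK1) had 121 and 131 CPM against 118 and 111 CPM (-0.14, SE 0.07) and MAPK9 (JNK2) had 109 and 110 CPM against 122 and 115 CPM (0.11, SE 0.07), neither passing. MAPK8 had an adjusted p of 0.028 with the density trend removed and 0.0426 without siUPF1 replicate 1, of a range that ended at 0.614 (edgeR).

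MAPK12 (p38 gamma), known for its expression in muscle, had 29.4 and 28.6 CPM in the controls and 43.1 and 40.5 CPM after siUPF1, with tight libraries in both groups. It rose 1.44-fold (log2 fold change 0.53, SE 0.10, edgeR adjusted p = 4.89e-06) and passed under each of 11 alternatives. The highest adjusted p of these was 0.00569, in DESeq2. HDAC10, annotated on the same strand, shares exon sequence with MAPK12, and had a log2 fold change of 0.30 that did not pass (SE 0.12, edgeR adjusted p = 0.0562), so reads of these neighbours may not be fully told apart. The main p38 gene MAPK14 (p38 alpha) had 107 and 113 CPM against 122 and 112 CPM (0.08, SE 0.07), and MAPK11 (0.29, SE 0.22) and MAPK13 (0.14, SE 0.10) did not pass either. MAPK12 made up 33.2% and 31.3% of the summed CPM per kb of the 4 p38 genes in the controls and 39.0% and 38.7% after siUPF1. The p38 sum was 48.0 and 49.6 CPM per kb in the controls and 59.8 and 56.8 CPM per kb after siUPF1, 19.5% higher on average. The sum of the dedicated p38 activators MAP2K3 and MAP2K6 was lower, as given above, and MAP2K4 was not part of it. These shares and sums are descriptions and were not tested, and their shifts follow in part from picking genes that had passed.

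**Figure D3:**
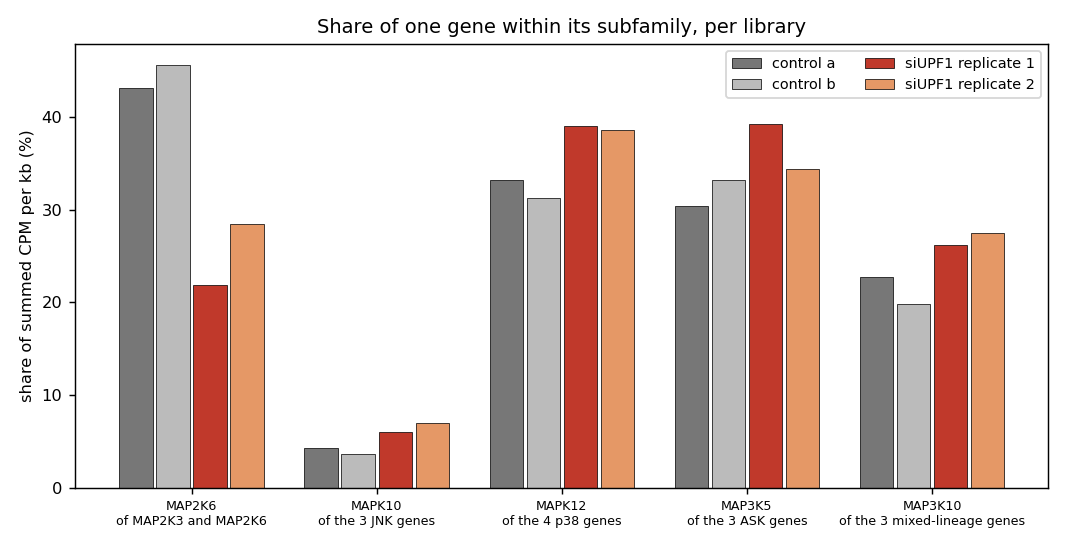
Share of one gene in the summed CPM per kb of its subfamily, in percent, one bar per library (greys for the controls, red and orange for siUPF1 replicates 1 and 2). The share of MAP2K6 is 43.2% and 45.6% in the controls and 21.9% and 28.5% after siUPF1, and those of MAPK10 and MAPK12 are higher after siUPF1 in both libraries. Those of MAP3K5 and MAP3K10 are also higher in both siUPF1 libraries than in either control. Each gene shown was picked because it had passed the test, so a shift of its share follows in part from that choice.

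MAPK7 (ERK5), a large MAPK activated by MAP2K5, had 69.5 and 66.9 CPM in the controls and 81.3 and 88.8 CPM after siUPF1, and rose by 0.32 on the log2 scale (SE 0.08, edgeR adjusted p = 0.000334). Leaving out control b gave an edgeR adjusted p of 0.0659, where the other alternatives reached as low as 2.04e-05. Its exons overlap those of B9D1 and MFAP4 on the opposite strand, which had log2 fold changes of -0.18 and -0.31 and did not pass. MAPK3 (ERK1), of the growth factor branch, had 64.5 and 57.6 CPM against 59.2 and 57.4 CPM (-0.06, SE 0.08) and did not pass. The atypical MAPK6 (ERK3), the highest MAPK at 47.7 CPM per kb, had a log2 fold change of -0.04 (SE 0.07), and MAPK15 (0.04, SE 0.23) had only 39 to 72 counts per library.

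None of the 5 MAP4Ks passed, with log2 fold changes between -0.31 and 0.05 and 1 of 5 at an unadjusted p under 0.05 (edgeR), as 36.5% of all genes were. DESeq2 and limma-voom also called 0 of 5. MAP4K4, a kinase upstream of JNK and the most abundant member in CPM, had 356 and 338 CPM in the controls and 357 and 331 CPM after siUPF1, a log2 fold change of -0.01 (SE 0.07). MAP4K3 (-0.06, SE 0.07) and MAP4K5 (0.05, SE 0.07) likewise stood near 0. MAP4K2 had 52.4 and 53.4 CPM against 43.4 and 47.8 CPM, apart but not past the test (-0.21, SE 0.09, edgeR adjusted p = 0.0567). MAP4K1 (HPK1), best known from blood cells, had 13.4 and 13.8 CPM against 9.9 and 11.9 CPM (-0.31, SE 0.16, edgeR adjusted p = 0.161). With the density trend removed, MAP4K2 and MAP4K1 passed, at edgeR adjusted p of 0.0123 and 0.035, the lowest over their alternatives, whose highest were 0.315 and 0.482 (both DESeq2). Without siUPF1 replicate 2, MAP4K2 (edgeR adjusted p = 0.0144) and MAP3K11 (edgeR adjusted p = 0.0364, highest alternative 0.809) passed.

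**Figure D4:**
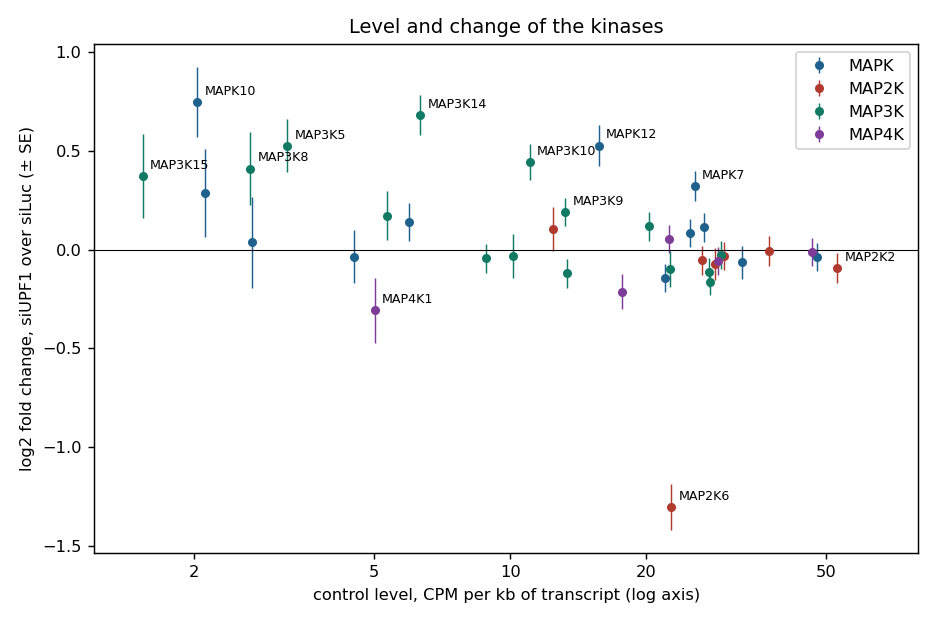
Control level in CPM per kb of transcript (log axis) against the log2 fold change after siUPF1, with SE as whiskers, for 39 kinases coloured by tier. The tallest rises lie among genes of low level, such as MAPK10 at 2.03 CPM per kb and MAP3K14 at 6.33, while MAP2K6 fell from 22.7 CPM per kb, and MAP2K2, the highest at 52.9 CPM per kb, lies near 0.

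Other genes of the pathway, taken from 6 lists that together cover its inputs, scaffolds and outputs, were mostly flat as well. Of 16 genes from RAS to RAF, the input to the ERK branch, 0 rose and 0 fell in edgeR, with log2 fold changes from -0.14 to 0.21 and 3 at an unadjusted p under 0.05 (36.5% of all genes were), RAP1A, HRAS and RASA1. DESeq2 and limma-voom called 0 of the 16 as well, while HRAS, RASA1 and NF1 passed with the density trend removed, RAP1A and HRAS without siUPF1 replicate 2, and RRAS2 without siUPF1 replicate 1. Of 12 kinases that act at the MAP3K or MAP4K level or as MAPKs but have other symbols, 1 rose and 4 fell, with a median of -0.04. NRK, a kinase of the MAP4K4 family, averaged 28.6 ± 2.64 CPM under siLuc and 59.9 ± 5.84 CPM under siUPF1 (SD, n = 2 libraries each), and rose by 1.06 on the log2 scale (SE 0.09). TAOK3 (-0.39, SE 0.09), TNIK (-0.27, SE 0.07), ZAK (-0.28, SE 0.07) and MINK1 (-0.24, SE 0.07) fell. ZAK and MINK1 are named beyond the 3 smallest p-values of the list, after their values were seen. DESeq2 called 1 higher and 2 lower of the 12.

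Among 11 kinases that MAPKs activate, 4 rose and 7 did not pass, with a median log2 fold change of 0.14. RPS6KA2 (RSK3), an ERK substrate, averaged 92.0 ± 2.40 CPM under siLuc and 134 ± 2.43 CPM under siUPF1 (SD, n = 2 libraries each), and rose by 0.54 on the log2 scale (SE 0.07). RPS6KA4 (0.31, SE 0.09), RPS6KA3 (0.25, SE 0.08) and the p38 substrate MAPKAPK2 (0.20, SE 0.07), the last named after its value was seen, rose too. Of 13 scaffold and adaptor genes 3 rose and 10 did not pass, with a median of 0.10. They were the JNK scaffolds MAPK8IP1 (0.29, SE 0.08) and MAPK8IP2 (0.42, SE 0.13) and the RAF regulator CNKSR1 (0.26, SE 0.11). In DESeq2, 1 of the 11 kinases and 0 of the 13 scaffold genes rose, while limma-voom called 4 and 2. In edgeR 5 of the 13 had an unadjusted p under 0.05, near the 36.5% of all genes, and 1 of the 13 rose with the density trend removed.

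Around MAP3K14, 1 of 8 regulators of the TAK1, ASK and NIK kinases rose. It was TRAF3, whose product marks NIK for degradation, at 66.3 ± 3.86 CPM in the controls and 83.1 ± 7.18 CPM after siUPF1 (SD, n = 2 per group; log2 fold change 0.33, SE 0.08). TRAF6 (0.20, SE 0.08) and BIRC2 (-0.16, SE 0.07), the next by p, did not pass. Of 7 NF-kB and IKK genes 2 rose and 5 did not pass. They were IKBKB, the kinase of the canonical branch (0.61, SE 0.08), and the IKK subunit IKBKG (0.32, SE 0.09), while NFKB2, whose product NIK causes to be processed, did not pass at 0.21 (SE 0.10). DESeq2 called 1 of these 7 higher. Beside these counts stand the background shares of all genes given above, and nothing is called particular to any list.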

How the data were processed

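A single series-wide table supplied all values, with read counts and RPKM per gene for 4 libraries, per the file headers. The deposited counts are unnormalized whole numbers, and the deposited RPKM values are reads scaled to transcript length and library size by the authors. STAR, DESeq2 and the build hg19 appear in the submitters' processing notes, without versions or roles. Strand use and the handling of multimapping reads are not given in the sources used here, so values of overlapping genes and close paralogs are uncertain. Since the header gives both control libraries one name, their count columns are termed control a and b, and their 2 RPKM columns were left aside. RPKM of siUPF1 libraries served only to recover each gene's transcript length.

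The test was edgeR 4.0.16 in R 4.3.3 (glmQLFit and glmQLFTest, two-sided, TMM, filterByExpr), fitted on 15557 genes, with Benjamini-Hochberg adjustment over all of them at 0.05. SE is the log2 fold change divided by the square root of F. It rests on a dispersion estimated with information from all genes tested. It can therefore be smaller or larger than a gene's own libraries would give. Within groups, counts varied beyond sampling noise (chi-square per degree of freedom 1.69 and 2.83), and each library was treated as 1 replicate. That variation does not show whether the libraries are separate cultures. The depth and counting error allow small differences to be seen near 100 CPM but not near 5 CPM, where SEs reached 0.23.

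The kinases, lists and tests were chosen with earlier results of these data known. Named genes are MAP3K14, each kinase past the test, the 3 most abundant others of each tier, and the 3 genes of each list with the smallest p. The other kinases are given with their tier, except 1 that enters the counts and medians but is not reported here. Upstream AUGs, UTR lengths and transcript types were read from GENCODE release 29 (GRCh38), matched through RefSeq transcripts for 13708 genes (88.1%), and no coordinates of that annotation are given. Alternatives were DESeq2 1.42.0, limma-voom (limma 3.58.1), RLE scaling, scaling by library size, no filter, a minimum of 5 CPM in 2 libraries, a threshold of 0.1, a fold of 1.5 or more, leaving out each library, and removal of each library's trend on reads per transcript base (loess, span 0.3).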

Additional observations from a re-analysis of the deposited data

How the results depend on the processing

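The count of kinases that rose was 7, and 4 to 8 when each library was left out in turn, lowest without control b, where MAP3K9, MAP3K10 and MAPK7 did not pass. It was 2 with a fold of at least 1.5 (MAP3K14 and MAPK10), which 6.24% of all genes reached, 5 in DESeq2, where 8.19% of all genes rose against 16.8%, and 6 to 8 in the other alternatives. The count that fell was 1, and 2 with library size alone, 3 at an adjusted p of 0.1 (13.0% of all genes), 6 with the density trend removed (13.3% of all genes then fell, against 9.14%), and 1 to 3 with each library left out, 2 without siUPF1 replicate 1 and 3 without siUPF1 replicate 2. MAP2K6 was among the fallers and MAP3K14, MAPK10 and MAPK12 among the risers in each of 11 alternative fits, where a lone library left in a group is assumed to vary like the other group. The fold of 1.5 left out MAPK12. MAP3K14 ranged from 0.47 to 0.86 and UPF1 from -1.80 to -1.44 on the log2 scale. Over all genes 2613 rose and 1422 fell, against 1274 and 465 in DESeq2, 1444 and 552 without control a and 1583 and 610 without control b. The cause of these differences was not tested. No paired analysis was possible because the control columns carry no replicate numbers that set them apart.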

Other observations

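Promoters from 250 bases before to 50 bases after the RefSeq start sites (GRCh38.p14) were searched on both strands for the letters TGACGTCA, the cAMP response element bound by ATF and CREB factors, and TGACTCA, the AP-1 element bound by JUN and FOS factors, some of which JNK phosphorylates. The motifs were chosen after the values were seen. Of 51 promoters of 36 kinases, 2 held the first and 3 the second, and of all 35116 promoters 1.85% and 4.95% did. MAPK10, the kinase with the largest rise, held one of each in different promoters, and the other matches were in MAP3K13, MAP3K8 and MAP2K3, which did not pass the test. The matches in MAPK10 are shown on the gene's strand, 5′ to 3′, with the match in capitals, and lie 79 and 38 bases before their start sites, at chr4:86360115-86360142 and chr4:86370889-86370915 on the minus strand.
MAPK10, first motif: ctctgggcttTGACGTCAtgtgtgctcc
MAPK10, second motif, reverse complement: ttctgttcatTGAGTCAtctgaagact
A match is a description of the letters in these windows and says nothing of binding.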
